A study of Mus musculus with 6 samples.

Results

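The genes that encode the proteins of the cytoplasmic ribosome were followed in nuclear RNA from mouse neural precursor cells (NPCs). They were chosen by symbol alone: every row whose symbol has the form Rpl or Rps followed by a number, with Rpsa, Rplp0, Rplp1 and Rplp2, leaving out the Rps6k kinases and pseudogenes. Of 23337 gene rows, 84 matched, and 1, Rps4y2, was left out because RefSeq lists it as a transcribed pseudogene. The remaining 83 genes were 46 genes of the large subunit, 31 of the small subunit and 6 paralogs (Rpl3l, Rpl7l1, Rpl10l, Rpl22l1, Rpl39l and Rps27l).

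The study compared nuclear RNA between wild-type (WT) cells and cells with a knockout (KO) of Fmr1, the X-linked gene of the RNA-binding protein FMRP. NPCs were taken from the dorsal forebrain of E13.5 mouse embryos and grown on Matrigel in medium with B27, N2, EGF and basic FGF at 20 ng/ml each and heparin at 5 µg/ml, to passage 6 to 7. There were 6 samples: WT lines 3, 8 and 19 and KO lines 3, 13 and 16, which the series describes as independent lines. Both genotypes were cultured, fractionated and sequenced in the same way, with cells harvested near 80% confluency and nuclei washed before RNA was purified. Strain, the allele of the knockout and the sex of the embryos are not stated in the labels. P-values below set the difference between genotypes against the spread between lines of a genotype.

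A ribosomal protein is made in the cytoplasm, imported into the nucleus and built into a subunit in the nucleolus around ribosomal RNA. Its messenger RNA is short, abundant and mostly cytoplasmic, and usually starts with a run of pyrimidines, the terminal oligopyrimidine (TOP) tract, through which growth signals and mTOR adjust its translation. Many ribosomal protein genes also carry small nucleolar RNAs (snoRNAs), the guides of ribosomal RNA modification, in their introns. FMRP is known to bind ribosomes and messages in the brain. In nuclear RNA the counts reflect transcripts being made, processed and exported, together with any cytoplasmic RNA that stays with the nuclei. In such bulk samples fewer cells of a type and less RNA per cell cannot be told apart.

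The 83 genes lay on 19 chromosomes, and 30 of them held 59 snoRNA genes within their bounds. Their start sites are shown because the pyrimidine run is the feature by which these messages are best known, and because the genes at both ends of the genotype comparison can be read side by side. Each sequence gives 20 bases before and 20 from the annotated start, on the gene's strand, from RefSeq on GRCm38.p6, and capitals mark the longest run of at least 7 pyrimidines reaching within 10 bases of the start. The 10 were picked among genes with such a run. Rpl10, Rps2 and Rps13, also higher in the libraries labelled KO, held none. The runs of Rpl10a, Rpl4 and Rps27l end before the annotated start, so by this annotation they are not part of the message. Rpl10a and Rps27l also have another annotated start without a run. The first 6 sequences belong to genes that were higher in the libraries labelled KO. The last 4 belong to Rpl39, Rps27l, Rpl22l1 and Rpl15, whose log2 fold changes were below 0.
Rpl28 (chr7:4792945-4792984, plus strand): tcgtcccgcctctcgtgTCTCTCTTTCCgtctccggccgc
Rpl10a (chr17:28328451-28328490, plus strand): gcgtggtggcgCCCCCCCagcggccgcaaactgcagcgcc
Rpl4 (chr9:64173367-64173406, plus strand): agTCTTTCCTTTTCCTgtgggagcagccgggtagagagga
Rpl12 (chr2:32961692-32961731, plus strand): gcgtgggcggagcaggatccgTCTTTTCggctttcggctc
Rpl14 (chr9:120571497-120571536, plus strand): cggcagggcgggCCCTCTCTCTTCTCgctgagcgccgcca
Rpl7a (chr2:26910787-26910826, plus strand): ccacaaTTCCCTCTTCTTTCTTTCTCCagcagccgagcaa
Rpl39 (chrX:37085203-37085242, minus strand): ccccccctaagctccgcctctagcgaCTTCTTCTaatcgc
Rps27l (chr9:66946066-66946105, plus strand): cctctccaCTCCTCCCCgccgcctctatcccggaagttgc
Rpl22l1 (chr3:28805488-28805527, plus strand): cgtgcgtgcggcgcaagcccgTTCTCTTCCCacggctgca
Rpl15 (chr14:18270967-18271006, minus strand): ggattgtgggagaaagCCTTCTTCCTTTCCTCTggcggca
Promoter windows (250 bases before to 50 after the start) were found for 63 of the 83 genes, and 34 of the 63 (54.0%) held such a run, against 22.5% of 27025 genes with a window. The letters CCGGAAG, the core bound by ETS factors such as GABP, were found on either strand in 26 (41.3%), against 9.93% of all genes. AAGATGGC, the core bound by YY1, was found on either strand in 6 (9.52%), against 3.19%. The search counted a gene once if any of its windows held the motif, and neither of these letter strings holds the pyrimidine run.

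The libraries held 18702738 to 26789522 counts, and 13925 genes passed the filter on low counts. The targeted gene went against 1 label: Fmr1 measured 223, 269.8 and 274 CPM (counts scaled to a common library total) in WT lines 3, 8 and 19, and 371, 188 and 153 CPM in KO lines 3, 13 and 16. KO line 3 therefore lay above every WT line, and directions below compare the libraries by their labels. The neural precursor markers (Sox2, Nes, Pax6, Vim, Fabp7, Sox1, Hes5 and Notch1) summed to 6910 to 7712 CPM in WT and 4748 to 6558 CPM in KO, while the microglial and erythroid lists stayed at or below 2.03 CPM. Every KO line was above every WT line for the neuronal list (8.07 to 11.1 CPM in WT and 16.9 to 29.1 CPM in KO), the endothelial list (4.44 to 5.06 and 5.75 to 8.61 CPM) and the fibroblast and meninges list (1.19 to 2.35 and 4.12 to 4.90 CPM). The astrocyte list (Gfap, Aqp4, Aldh1l1 and S100b) summed to 153 to 384 CPM in WT and 60.8 to 109.8 CPM in KO, highest in WT line 19. The oligodendrocyte lineage list summed to 59.3 to 65.2 CPM in WT and 98.7 to 100.3 CPM in KO. These sums hide differences within a list. Of the 8 precursor markers, 4 had log2 fold changes (KO over WT) above 0 and 4 below, from -0.50 to 1.40. Tested genes of the oligodendrocyte list ran from -0.35 to 4.03, of the astrocyte list from -3.10 to 0.23 and of the neuronal list from 0.19 to 4.06. Those of the endothelial list ran from -0.05 to 0.68.

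Ribosomal protein genes held about 1 count in 100 of the nuclear RNA, and the genotypes overlapped. They held 0.974%, 0.926% and 0.720% of all counts in WT lines 3, 8 and 19, and 0.925%, 0.968% and 1.31% in KO lines 3, 13 and 16. The means were 0.873% ± 0.135 in WT and 1.07% ± 0.211 in KO (SD, n = 3). WT lines 3 and 8 and KO lines 3 and 13 lay close together, WT line 19 lay below them and KO line 16 above them, and the highest line held 1.82 times the lowest. On the log2 scale the mean of KO was 0.28 above that of WT. Without WT line 19 and KO line 16, a check chosen after seeing the data, the difference was -0.0050. Leaving out the lowest WT line and the highest KO line lowers the difference by construction, so this value does not test for a genotype difference.

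**Figure D1:**
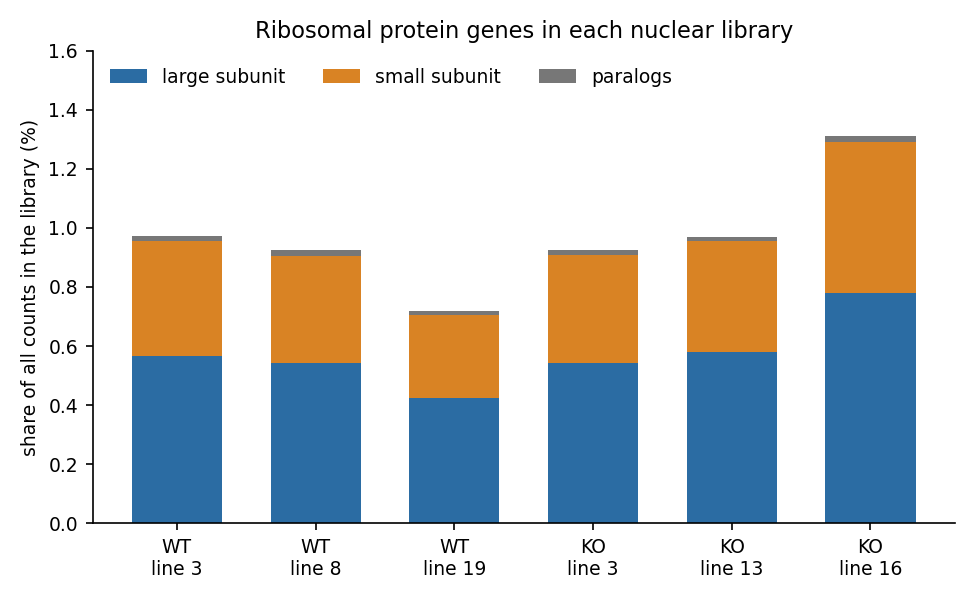
Share of all counts in each nuclear library (vertical axis, percent, from 0) held by genes of the large subunit, the small subunit and their paralogs, stacked, for 3 WT and 3 KO lines. KO line 16 stands highest at 1.31% and WT line 19 lowest at 0.720%, while the other 4 lines lie between 0.925% and 0.974%.

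The genes of both subunits followed the same order of lines at the extremes. The large subunit held 0.568%, 0.541% and 0.425% of counts in WT lines 3, 8 and 19, and 0.542%, 0.580% and 0.779% in KO lines 3, 13 and 16. The small subunit held 0.387%, 0.364% and 0.281% in the WT lines and 0.366%, 0.375% and 0.513% in the KO lines. In both subunits WT line 19 was the lowest and KO line 16 the highest. The ratio of large to small stayed nearly constant, at 1.47, 1.49 and 1.51 in WT and 1.48, 1.55 and 1.52 in KO, so that its highest value was 1.05 times its lowest. The mean ratios, 1.49 ± 0.0232 in WT and 1.52 ± 0.0342 in KO (SD, n = 3), differed by about the spread between lines, and the groups overlapped.

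The split between lines ran through nearly all the genes. Of the 78 tested, 70 were highest in KO line 16 and 65 were lowest in WT line 19. The median deviation of a gene from its own mean over the 6 lines, in log2 CPM on the scale of the trimmed mean of M values (TMM), was 0.44 in KO line 16 and -0.39 in WT line 19, and between -0.05 and 0.003 in the other 4 lines. For the large subunit these medians were 0.46 in KO line 16 and -0.38 in WT line 19, and for the small subunit 0.42 and -0.41. Among the exceptions, Rpl39, Rpl22l1 and Rps27l lay highest in WT line 8 and lowest in KO line 13.

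**Figure D2:**
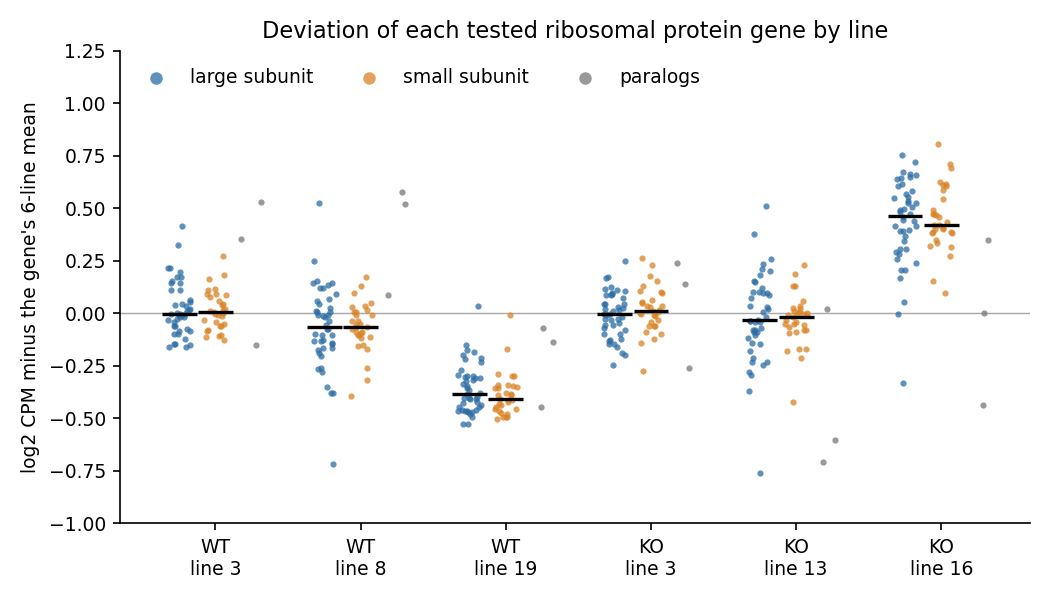
Log2 CPM of each of the 78 tested ribosomal protein genes minus its mean over the 6 lines (vertical axis), by line, with 1 point per gene and black bars at the medians of the large and small subunit. The medians of both subunits lie near 0 in 4 lines, at -0.38 and -0.41 in WT line 19 and at 0.46 and 0.42 in KO line 16.

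Measured gene by gene, the spread between lines of the same genotype had a higher median than over all genes. The median SD of log2 CPM over 3 lines was 0.21 in WT and 0.29 in KO, against 0.13 and 0.20 over all genes tested. The mitochondrial ribosomal protein genes, encoded in the nucleus but serving the other ribosome of the cell, had medians of 0.15 and 0.19. Genotype accounted for a median of 34.9% of a cytoplasmic ribosomal protein gene's variance over the 6 lines, against 60.1% over all genes. For the mitochondrial ribosomal protein genes it was lower still, at 19.6%. Once the genotype means were taken out, a single principal component held 82.4% of the variance left among the cytoplasmic ribosomal protein genes. It held 67.8% among the mitochondrial ones and 53.7% among all genes. Without WT line 19 the median SD in WT was 0.058, and without KO line 16 that in KO was 0.088. Those were the lines at the extremes, so a lower SD was largely set by leaving them out. The SD over all genes without them is not given here.

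The SD was smallest for Rpl22 (0.12 over the 6 lines), Rpl5 (0.18) and Rpl6 (0.20), all of the large subunit. Rpl5, with Rpl11 and 5S RNA, forms the particle that restrains the p53 inhibitor Mdm2 when ribosome assembly is disturbed. The SD was widest for Rps27l (0.49), Rpl39 (0.48) and Rpl22l1 (0.45).

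Other RNAs also set WT line 19 and KO line 16 apart, and their part in the result was not tested, nor was that of the astrocyte list, highest in WT line 19, or of the other marker lists. Malat1, a long noncoding RNA retained in nuclear speckles, measured 3935, 4503 and 8149 CPM over total counts in WT lines 3, 8 and 19 and 5141, 5853 and 2739 CPM in KO lines 3, 13 and 16. It was thus highest where ribosomal protein RNA was lowest and lowest where it was highest. Rn45s, the ribosomal RNA precursor, measured 18477 CPM in WT line 19 and 1033 to 2597 CPM in the other 5 lines. Xist also did not follow the order of Malat1, with 15783 and 18582 CPM in WT lines 3 and 8, 19659 CPM in KO line 3 and at most 80.6 CPM in the other lines.

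The summed level of abundant cytoplasmic messages had the same lowest and highest lines as that of the ribosomal protein genes. A list of 21 such genes with no ribosomal member (Actb, Gapdh, Tmsb4x, Ppia and others) summed to 7461, 8017 and 6235 CPM over total counts in the WT lines and 7183, 7792 and 10326 CPM in the KO lines, again lowest in WT line 19 and highest in KO line 16. Actb, the beta-actin message by which the study judged the purity of its nuclei, measured 679, 859 and 669 CPM in WT and 1094, 1005 and 1409 CPM in KO. Unlike the sum, Actb lay above every WT line in every KO line. The genes of the list did not move together: of 20 tested, 14 had log2 fold changes above 0 and 6 below, from -0.88 to 1.58. The summed level of ribosomal protein genes divided by that of the 21 genes was 1.31, 1.16 and 1.15 in WT lines 3, 8 and 19 and 1.29, 1.24 and 1.27 in KO lines 3, 13 and 16. In that ratio KO line 16 no longer stood apart and the groups overlapped. How much of the members' RNA was cytoplasmic was not tested.

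In the comparison of genotypes, 15 of the 78 tested genes were higher in the libraries labelled KO, 2 were lower and 61 fell short of an adjusted p of 0.05 in edgeR's quasi-likelihood test (Benjamini-Hochberg over all 13925 genes). The 15 make up 19.2%, near the 21.8% of all genes tested that were called higher, while the 2 make up 2.56%, against 20.4% of all genes called lower. The log2 fold change was above 0 for 70 of the 78, with a median of 0.31 against 0.01 over all genes tested. All 3 KO lines lay above all 3 WT lines for 24 of the 78 genes, or 30.8%, against 28.6% of all genes tested, and below them for 0, against 25.7%. At an unadjusted p under 0.05, 26 were higher and 2 lower, against 3696 and 3394 of all 13925 genes tested. The DESeq2 Wald test called 18 higher after adjustment (23.1%, against 21.7% of all genes) and 3 lower.

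The count of higher genes changed with the lines used. Without WT line 19 it was 2 (2.56%, against 17.0% of all genes tested), with a median log2 fold change of 0.20, and without KO line 16 it was 5 (6.41%, against 19%), with a median of 0.14. Without WT line 3, WT line 8 or KO line 13 it was 9, 4 and 10 (11.5%, 5.13% and 12.8%, against 14.2%, 15.5% and 16.1% of all genes), while the medians, at 0.36, 0.34 and 0.39, were no lower than with all lines. Without KO line 3, the line whose Fmr1 goes against its label, it was 29 (37.2%, against 25.8%). When a trend of each library on transcript length was removed it was 35 (44.9%, against 22.9%), so that the nearness to the share of all genes held at some settings and not at others. Rpl10a and Rps20 were the genes called higher whichever line was left out.

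**Figure D3:**
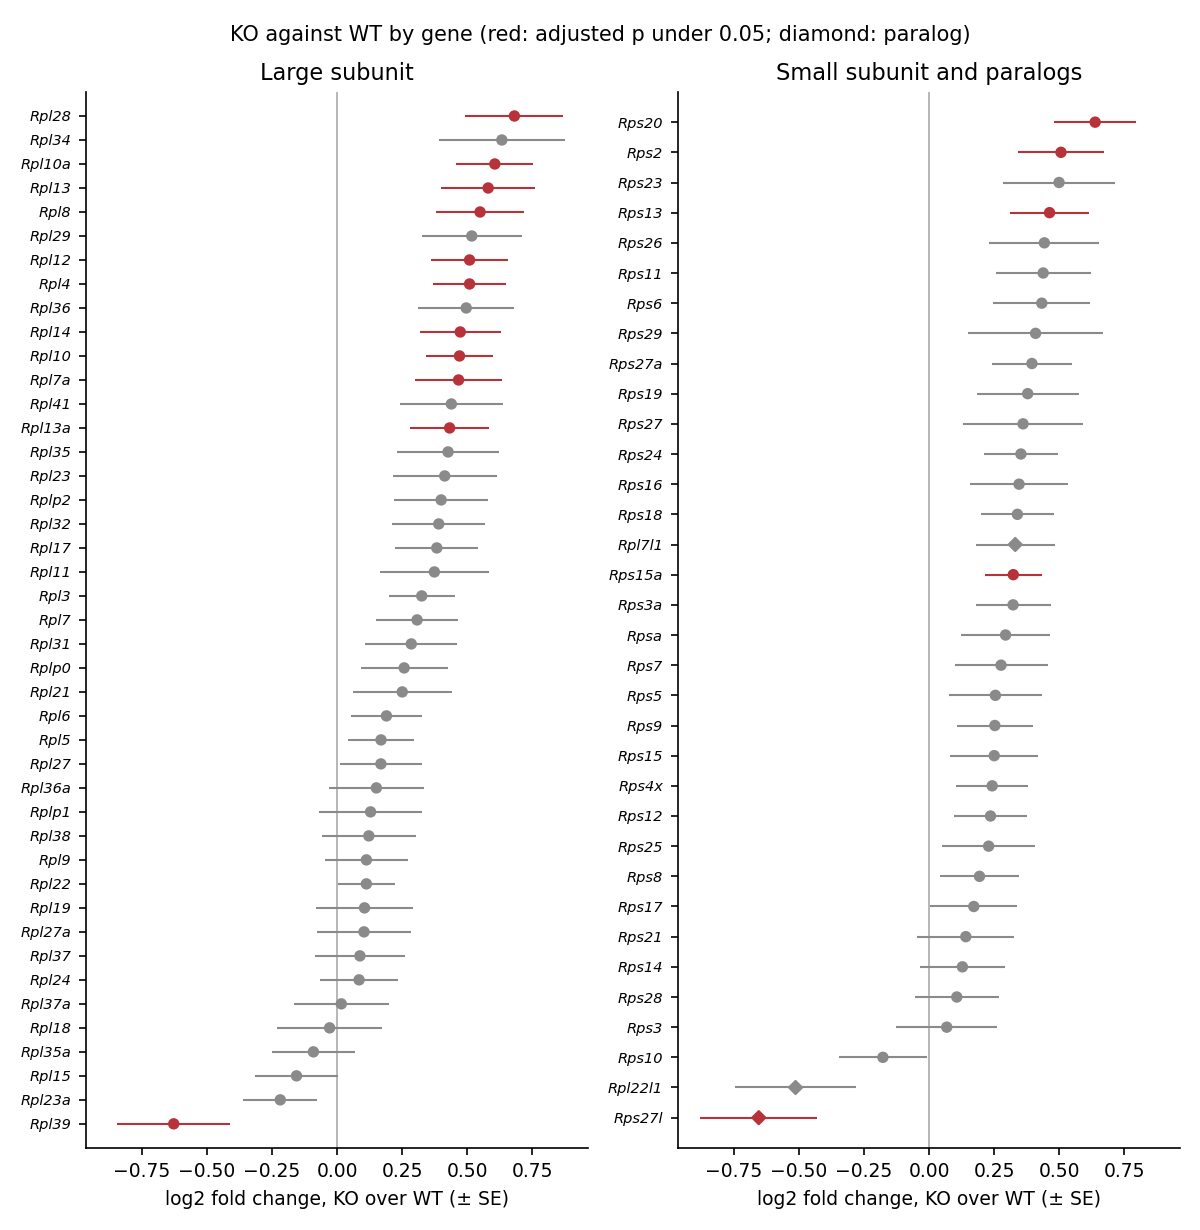
Log2 fold change of KO over WT (horizontal axis, bars ± SE, n = 3 lines each) for tested genes, with the large subunit on the left and the small subunit and paralogs on the right, and red marks for an adjusted p under 0.05. Most marks lie above 0, with Rpl39 and the paralogs Rps27l and Rpl22l1 at -0.63, -0.65 and -0.51.

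In the large subunit 11 of 44 tested genes were higher and 1 was lower, with a median log2 fold change of 0.32, and at an unadjusted p under 0.05 16 were higher and 1 lower. In the small subunit 4 of 31 were higher and 0 lower, also with a median of 0.32, and at an unadjusted p under 0.05 10 were higher and 0 lower. The difference between the subunits in the number called was not tested. The share called higher was 25.0% of the large subunit and 12.9% of the small, against 21.8% of all genes tested. Every KO line lay above every WT line for 31.8% and 32.3%, against 28.6% of all genes.

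Rpl10a encodes the protein of the L1 stalk, the arm of the large subunit by which the ribosome releases spent transfer RNA. The gene (ENSMUSG00000037805.15) spans 28328471 to 28331033 on chromosome 17, plus strand, in GRCm38. It measured 104, 88.4 and 90.1 CPM in WT lines 3, 8 and 19 and 114, 149.9 and 166 CPM in KO lines 3, 13 and 16. Every KO line was above every WT line, KO line 3 by the least. The difference on the log2 scale was 0.61 (SE 0.15, adjusted p = 0.0106 by edgeR's quasi-likelihood test), and ran from 0.50 to 0.75 as each line was left out.

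Rps20, a protein of the head of the small subunit, gave similar values. The gene (ENSMUSG00000028234.6) spans 3831334 to 3835665 on chromosome 4, minus strand. It measured 79.4, 69.5 and 61.4 CPM in WT lines 3, 8 and 19 and 94.9, 98.7 and 134 CPM in KO lines 3, 13 and 16. The groups did not overlap, and KO line 16 was the highest. Its log2 fold change was 0.64 (SE 0.16, adjusted p = 0.0112 by edgeR), and ran from 0.47 to 0.73 as each line was left out.

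Rpl28, a protein of the large subunit, had the highest fold change of the 78 tested. It measured 57.3, 49.7 and 45.6 CPM in WT lines 3, 8 and 19 and 64.2, 73.4 and 107 CPM in KO lines 3, 13 and 16. The groups did not overlap, though KO line 3 lay nearer to WT line 3 than to KO line 16. Its log2 fold change was 0.68 (SE 0.19, adjusted p = 0.0181 by edgeR), and the call was lost without WT line 8 or WT line 19.

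Rpl4, which lines the exit tunnel of the large subunit and hosts 5 snoRNA genes, took the most counts of the 83 genes. It measured 438, 447 and 354 CPM in WT lines 3, 8 and 19 and 527, 556 and 679 CPM in KO lines 3, 13 and 16. The groups did not overlap. In log2 terms KO was higher by 0.51 (SE 0.14, adjusted p = 0.0172 by edgeR), and the call was lost without WT line 19.

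**Figure D4:**
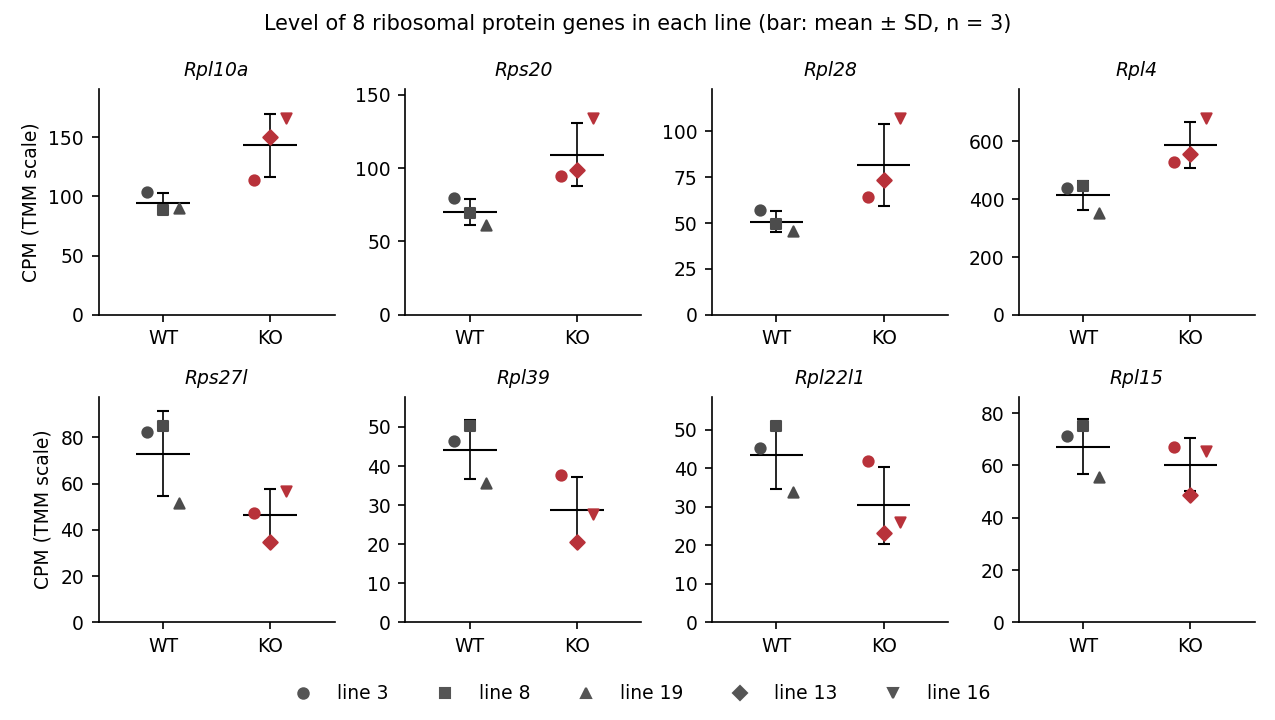
CPM on the TMM scale (vertical axes, from 0) of 8 genes in each line, with marker shapes for the lines and bars at the mean ± SD of 3 lines. The KO lines lie above the WT lines for Rpl10a, Rps20, Rpl28 and Rpl4, while Rps27l, Rpl39, Rpl22l1 and Rpl15 have lower means in KO and overlapping groups.

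Other large subunit genes called higher were Rpl13 (0.58), Rpl8 (0.55), Rpl12 (0.51), Rpl14 (0.47), Rpl10 (0.47), Rpl7a (0.47) and Rpl13a (0.43), where the values are log2 fold changes. Rpl8 lies near the peptidyl transferase centre, Rpl12 at the base of the stalk that recruits elongation factors, and Rpl13a is also known, in human myeloid cells, as a repressor of inflammatory messages once it leaves the ribosome. Their adjusted p ran from 0.0168 for Rpl10 to 0.0495 for Rpl7a, and the KO and WT lines did not overlap for any of these 7. The small subunit genes were Rps2 (0.51), Rps13 (0.46) and Rps15a (0.32), with adjusted p of 0.034, 0.0365 and 0.0418. Rps2 sits at the messenger RNA entry of the small subunit. Each of these 10 calls was lost when WT line 19 was left out.

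The acidic stalk of the large subunit, made of Rplp0, Rplp1 and Rplp2, recruits and activates the translation factors that hydrolyse GTP. Rplp0 measured 280.4, 276 and 216 CPM in WT lines 3, 8 and 19 and 282, 259 and 382 CPM in KO lines 3, 13 and 16, and Rplp1 measured 208, 178 and 153 CPM against 161, 167 and 261 CPM. Both overlapped between groups, and KO line 16 was the highest. Rplp2 had a log2 fold change of 0.40 (SE 0.18, adjusted p = 0.103 by edgeR), and those of Rplp0 and Rplp1 were 0.26 and 0.13, so that none of the 3 passed the test.

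Rpl39 was the core gene that fell in the libraries labelled KO. Its product, among the smallest ribosomal proteins, lines the exit tunnel. The gene (ENSMUSG00000079641.3) lies on chromosome X, 37082520 to 37085402, minus strand, and hosts 1 snoRNA gene. It measured 46.5, 50.2 and 35.7 CPM in WT lines 3, 8 and 19 and 37.7, 20.5 and 27.7 CPM in KO lines 3, 13 and 16. KO line 3 overlapped the WT range, just above WT line 19. The difference on the log2 scale was -0.63 (SE 0.22, adjusted p = 0.0438 by edgeR), and the call was lost without WT line 3, WT line 8, KO line 13 or KO line 16, and when a trend of each library on transcript length was removed.

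Of the 3 tested paralogs edgeR called 1 lower and 2 missed its threshold. Rps27l, a near copy of Rps27 known as a target of p53, measured 82.3, 84.9 and 51.8 CPM in WT lines 3, 8 and 19 and 47.5, 34.8 and 57.0 CPM in KO lines 3, 13 and 16. KO line 16 lay above WT line 19, so the groups overlapped. The change in log2 terms was -0.65 (SE 0.22, adjusted p = 0.0422 by edgeR), and the call was lost without WT line 3, WT line 8, KO line 3 or KO line 13. Its parent Rps27 was nearly absent, at 1.7 to 3.2 CPM in the 6 lines, with a log2 fold change of 0.36 (adjusted p = 0.237 by edgeR).

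Rpl22l1, the paralog whose RNA the Rpl22 protein is known to bind and hold down in mouse, measured 45.2, 50.9 and 33.8 CPM in WT lines 3, 8 and 19 and 41.8, 23.3 and 26.2 CPM in KO lines 3, 13 and 16. KO lines 13 and 16 lay below every WT line and KO line 3 within their range. Its difference of -0.51 on the log2 scale (SE 0.23) missed the threshold of edgeR's test (adjusted p = 0.104). It passed in 6 of 20 alternatives, among them the DESeq2 Wald test (adjusted p = 0.0457), edgeR with Xist state as a covariate (0.0474) and edgeR without KO line 3 (0.00161). The adjusted p over the 20 ran from 6.17e-06 (edgeR without WT line 19 and KO line 3) to 0.297 (edgeR without KO line 13). Rpl22 itself measured 146, 143 and 123 CPM in WT and 147, 139 and 159.8 CPM in KO, with a log2 fold change of 0.11 (SE 0.11, adjusted p = 0.442).

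Rpl7l1, a relative of Rpl7 that acts in assembly of the large subunit, had a log2 fold change of 0.33 (SE 0.15, adjusted p = 0.11 by edgeR), and that of Rpl7 was 0.31 (adjusted p = 0.147). The other 3 paralogs are best known from a few tissues, Rpl10l and Rpl39l from testis and Rpl3l from heart and skeletal muscle. Rpl10l had 0 counts in all 6 libraries, which allows a level of up to 0.112 to 0.16 CPM per library from counting error alone. Rpl39l had 1 count in all and Rpl3l 25.

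The X-linked genes of the family are Rpl10, Rpl36a, Rpl39 and Rps4x, and lines with high Xist (WT lines 3 and 8 and KO line 3) occur in both genotypes. Rpl10 measured 129, 122 and 99.7 CPM in WT lines 3, 8 and 19 and 163, 146 and 177 CPM in KO lines 3, 13 and 16. Every KO line lay above every WT line, KO line 3 with high Xist as well as the others. Rps4x had a log2 fold change of 0.24 (SE 0.14, adjusted p = 0.185 by edgeR) and Rpl36a of 0.15 (SE 0.18, adjusted p = 0.533). With Xist state as a covariate Rpl10 and Rpl39 kept their calls.

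Levels were also taken as a share of the family's own counts, which sets aside what all members do together, and on that scale every KO line lay above WT for 10 genes and below it for 21. Rpl39 held 0.487%, 0.547% and 0.490% of ribosomal protein counts in WT lines 3, 8 and 19 and 0.391%, 0.215% and 0.214% in KO lines 3, 13 and 16. Rps27l held 0.862%, 0.924% and 0.710% in WT and 0.492%, 0.364% and 0.440% in KO. The KO lines lay below the WT lines for both.

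Rpl22l1, Rpl23a, Rps10, Rpl15, Rpl35a and Rpl18 were also below WT in every KO line on this scale. Rpl15, a structural protein of the large subunit, held 0.745%, 0.817% and 0.759% in WT and 0.693%, 0.510% and 0.505% in KO, and Rps10, at the head of the small subunit, held 0.737%, 0.714% and 0.707% in WT and 0.625%, 0.455% and 0.481% in KO. KO line 3 lay nearer to WT than the other KO lines did for Rpl39, Rpl22l1, Rpl15 and Rps10.

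In the other direction Rps20 held 0.832%, 0.757% and 0.842% in WT and 0.983%, 1.03% and 1.03% in KO. Rpl4 held 4.59%, 4.87% and 4.85% in WT and 5.46%, 5.82% and 5.25% in KO. The 10 genes above make up 12.8% of the 78 and the 21 below 26.9%, against 7.38% and 34.4% of all genes tested when scaled alike. The 21 were 13 of the large subunit, 6 of the small and 2 paralogs. The libraries were also scaled to the members' summed counts, a setting chosen after seeing the data. It lowers the median log2 fold change of all genes to -0.28 and by construction brings that of the members near 0 (0.02). At this scaling edgeR called 0 members higher, with 0 also at an unadjusted p under 0.05, against 5.72% of all genes called higher. The lack of higher members was thus largely set by the scaling. The members called lower were 3, Rpl39, Rps27l and Rpl22l1, which also had the lowest fold changes in the main fit. No other tool was run at this scaling.

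Per kilobase of transcript the levels ranged widely, from 5.73 to 377 CPM per kb among tested genes, with a median of 130.2. Rplp1 (377 CPM per kb), Rps24 (351) and Rpl4 (325) were the highest of the 83, and Rpl10l, Rpl39l and Rpl26 the lowest. Rps24 encodes a small subunit protein that is mutated in some patients with Diamond-Blackfan anaemia.

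Some core genes were nearly without counts. Rpl26, a large subunit protein also known to bind the p53 message, had 1 count in all 6 libraries together, and Rpl30 had 52. Rpl34 measured 1.6 to 3.8 CPM in the 6 lines. In GENCODE transcripts, 71.3% of the 50-base words of Rpl26, 76.4% of those of Rpl30, 50.6% of those of Rpl34 and 98.7% of those of Rps27 also occur in other genes. Rpl35, Rpl5 and Rpl9, with 95.1%, 93.8% and 93.3% shared, had mean levels of 42.3, 115 and 189 CPM over the 6 lines. The part of shared words in the low counts was not tested.

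Shared words were common in the family: 80 of the 83 genes held at least 1, and the median share was 53.6%. Reads from such stretches may have been dropped, split or given to a pseudogene in the authors' counting, so levels of single genes are uncertain for that reason. Across the 78 tested genes Spearman's rho of the share with CPM per kb was 0.093 and with the log2 fold change 0.025, as descriptions over genes that come from the same 6 libraries. Of 46 tested genes with over 50% of words shared, 7 were higher (15.2%) and 0 lower. Of 32 others 8 were higher (25.0%) and 2 lower (6.25%), and the median log2 fold change was 0.31 in both. Over all genes tested 21.8% were higher and 20.4% lower.

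Other properties were described in the same way. Of 29 tested genes with a snoRNA gene inside, 10 were higher (34.5%) and 1 lower (3.45%), with a median log2 fold change of 0.38. Of the 49 without one 5 were higher (10.2%) and 1 lower (2.04%), with a median of 0.26. Over all genes tested 21.8% were higher and 20.4% lower, and the difference between hosts and the rest was not tested. The 33 tested genes with a pyrimidine run near the annotated start, on either side of it, had a median of 0.34. The 26 with a window but no run had a median of 0.25. Those with CCGGAAG had a median of 0.28 and those without 0.32. Spearman's rho of the log2 fold change over the 78 genes was 0.18 with mean CPM, 0.20 with transcript length and -0.38 with the SD among WT lines.

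Fau, which the symbol rule does not reach, encodes a ubiquitin-like protein joined to the small subunit protein eS30. It had a log2 fold change of 0.18 (SE 0.16, adjusted p = 0.371 by edgeR). Gnb2l1, the gene of the small subunit scaffold RACK1, measured 384, 366 and 313 CPM in WT lines 3, 8 and 19 and 430.0, 428 and 526 CPM in KO lines 3, 13 and 16. It was higher in every KO line (log2 fold change 0.38, SE 0.13, adjusted p = 0.04 by edgeR).

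Many genes that build the ribosome were higher in the libraries labelled KO. Of 79 ribosome biogenesis genes, 40 were higher (50.6%) and 1 lower (1.27%), with a median log2 fold change of 0.31. The shares of all genes tested were 21.8% and 20.4%. Nop56, a core protein of box C/D snoRNPs, measured 261, 247 and 247 CPM in WT lines 3, 8 and 19 and 361, 426 and 410.4 CPM in KO lines 3, 13 and 16, and KO line 16 was not the highest. Its log2 fold change was 0.66 (SE 0.11, adjusted p = 0.00129 by edgeR). Ddx27 (0.74), Pdcd11 (0.66) and Nle1 (0.70), all factors of subunit assembly or ribosomal RNA processing, were also higher, where the values are log2 fold changes. The difference in the share called between this list and the ribosomal protein genes was not tested.

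Of 15 genes of RNA polymerase I and its factors, which transcribe ribosomal RNA, 5 were higher (33.3%) and 0 lower. The shares of all genes tested were 21.8% and 20.4%. At an unadjusted p under 0.05, 7 of the 15 were higher and 0 lower, and their median was 0.22. Polr1a, the largest subunit, rose from 155 ± 12.4 CPM in WT to 262 ± 21.3 CPM in KO (SD, n = 3), with a log2 fold change of 0.76 (adjusted p = 0.000847 by edgeR). Polr1c, Polr1b and Taf1c were higher by 0.62, 0.46 and 0.43 on the log2 scale. Of 12 noncoding hosts of snoRNAs, 3 were higher (25.0%, against 21.8% of all genes tested) and 0 lower. The 3 were Snhg7 (log2 fold change 0.46), Snhg8 (0.37) and Mir17hg (1.29), the last better known as the host of a microRNA cluster.

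Factors that drive translation moved in both directions. Of 37 initiation genes 14 were higher (37.8%) and 1 lower (2.7%), with a median of 0.29. The shares of all genes tested were 21.8% and 20.4%. Among the 14 were Eif4ebp2 (0.71), an inhibitor of the cap-binding protein and an mTOR target, Eif3b (0.64), Eif4h (0.60) and Eif4g3 (0.59). Of 12 elongation and termination genes 3 were higher (25.0%), including Eif5a (0.66) and Gspt2 (0.41), and 2 were lower (16.7%). The 2 were Eef2k (-0.64), the kinase that inhibits Eef2, and Eef1a2, the elongation factor of neurons and muscle. Eef1a2 lay at 1.23 ± 0.242 CPM in WT (SD, n = 3) and, with 3 counts or fewer in each library, at 0.107 to 0.129 CPM in KO. Of 23 other messages that start with a TOP tract 7 were higher (30.4%) and 1 lower (4.35%), with a median of 0.26. Eif3f (0.60), Eef2 (0.56), Eif4b (0.45) and Pabpc1 (0.42) were among the 7.

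The genes of the mitochondrial ribosome had a median near 0. Of 76 mitochondrial ribosomal protein genes 1, Mrps2 (0.49), was higher (1.32%) and 5 were lower (6.58%), with a median log2 fold change of -0.01. The shares of all genes tested were 21.8% and 20.4%. Mrps6 (-0.53), Mrpl33 (-0.58) and Mrpl34 (-0.76) were among the 5. Nuclear genes of oxidative phosphorylation, short and abundant messages like those of the ribosome, had a median of -0.49, with 33 of 74 lower (44.6%) and 1 higher (1.35%). Cox6c, a subunit of cytochrome oxidase, fell by 0.92 on the log2 scale (adjusted p = 0.00219 by edgeR), and Ndufa4 fell by 1.07.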

How the data were processed

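Counts per gene symbol, 1 column per sample, were used as the authors deposited them, without normalization. Cutadapt 1.14, STAR, HTSeq 0.7.2, DESeq2 and build mm10 are named, per the submitters' processing notes. For the annotation, strand setting and handling of multi-mapping reads no statement is given in the sources used here, so overlapping genes on opposite strands cannot be told apart. Counts were fitted with edgeR 4.0.16 in R 4.3.3 (filterByExpr, TMM, robust quasi-likelihood, 6 samples, genotype alone), with P-values adjusted by Benjamini-Hochberg over 13925 genes, two-sided, threshold 0.05. SEs come from the F statistic. Single-gene CPM are on the TMM scale. Log2 CPM carried a prior count of 2. Transcript lengths, snoRNA genes and shared 50-base words came from GENCODE mouse release 21, the length being that of the shortest transcript with a RefSeq match, and start sequences from RefSeq. The fit was tested on simulated data. A count of 0 was read against a floor of 3 counts.

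The members and lists were chosen with earlier results of these data known. Named were the members called, the highest and lowest 3 per length and by SD, the X-linked genes, the paralogs with their parents, Fau, and up to 4 genes per list by smallest p. Some genes that met this rule are not reported here, though counts include them. Rpl15, Rpl23a, Rps10, Rpl35a, Rpl18, Rpl30, Rpl34, the stalk genes, Gnb2l1, Malat1, Neat1, Actb, Rn45s and Xist were named besides, some after their values were seen. Alternatives were other scalings (DESeq2 1.42.0 factors, upper quartile, totals, TMM without the members), filters, limma-voom (3.58.1) with and without weights for samples, DESeq2's Wald test, a threshold of 0.1, Xist state, a length trend, and leaving out lines.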

Additional observations from a re-analysis of the deposited data

How the results depend on the processing

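No paired analysis was possible because the genotypes share only the line number 3. The members called higher (15) were 26 at a threshold of 0.10 (33.3%, against 26.7% of all genes) and 35 with the length trend removed (44.9%, against 22.9%). They were 0 when scaled to the members, against 5.72% of all genes. As each line was left out they were 2 to 29, against 14.2% to 25.8% of all genes. Members called lower (2) were 1 without a filter on low counts and with the length trend removed, 5 with voom sample weights and without WT line 19 and KO line 3, and 0 to 2 as each line was left out. Large subunit genes called higher (11) were 20 with the length trend removed. Without WT line 19 and KO line 3 they were 17, where 25.9% of all genes were called higher. They were 0 when scaled to the members and 1 to 19 leaving out each line. Those of the small subunit (4) were 10 at the threshold of 0.10, 15 with the length trend removed, 0 when scaled to the members and 1 to 10 leaving out each line. The cause was not tested.

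The log2 ratio of large to small subunit level, KO over WT, was 0.025, and 0.062 from medians over members. The summed level, KO over WT in log2, was 0.28, between 0.13 and 0.38 leaving out each line, and -0.0050 without WT line 19 and KO line 16. That last choice, of the lowest WT line and the highest KO line, lowers the difference by construction. The median SD ran from 0.058 to 0.28 in WT and from 0.088 to 0.34 in KO leaving out each line. Scaling to the members lowers all genes alike, to a median of -0.28, and so by construction put the log2 fold change of Rps4x at -0.0541, of Rpl36a at -0.16 and of Rpl22 at -0.18. Rpl36a, at 0.15, was also -0.0304 with voom sample weights and ran from -0.0515 without KO line 16 to 0.295 leaving out each line. Fmr1, at -0.10, ran from -0.577 without KO line 3 to 0.136 without KO line 16, and was 0.0409 without KO line 13. With 3 lines a genotype, each comparison above rests on few samples, and Rpl26, Rpl30 and the tissue paralogs had too few counts to compare.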
